A study of Mus musculus with 12 samples.

Results

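The response of the neonatal mouse lung to lipopolysaccharide (LPS) was measured in 6 of the 12 lung libraries of the study, chosen as all libraries labelled *Adm*+/+, the wild type (WT). Of these, 3 came from WT mice given LPS (replicates 9, 10 and 11) and 3 from WT mice given phosphate-buffered saline (PBS; replicates 3, 4 and 5). The mice were C57Bl/6J and had both copies of *Adm*, the gene of the peptide hormone adrenomedullin. LPS from Escherichia coli O55:B5 was injected into the peritoneum at 6 mg/kg, with 3 daily doses from postnatal day 3, and control mice received PBS in the same volume. Lungs were taken on postnatal day 5, at 6 h after the last dose, and their total RNA was sequenced in bulk, so that the values average all cells of the organ. The other 6 libraries came from *Adm*+/- mice, with the same treatments, strain and age (replicates 6, 7 and 8 with PBS, and 1, 2 and 12 with LPS). They shared the fit of the spread and served for the test of a difference between genotypes. Of 21950 protein-coding genes in the table, 15885 passed a filter on low counts and were tested.

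LPS is a component of the outer membrane of gram-negative bacteria. It is carried by *Lbp* and *Cd14* to the receptor *Tlr4*, whose adaptor *Myd88* passes the signal on to the NF-kappa B transcription factors. These switch on genes of cytokines and chemokines, which draw neutrophils and monocytes from the blood, and also genes of their own inhibitors. In the days after birth the mouse lung builds its alveoli. Mesenchymal cells, endothelium and epithelium exchange growth factors and guidance cues in this period, and many of these cells still divide.

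Total counts per library were between 22382535 and 38062873. The deepest library was WT LPS replicate 9 and the shallowest WT PBS replicate 5. Levels are given as CPM, counts scaled to a common library size after TMM normalisation, in the order of replicates 3, 4 and 5 for WT PBS and 9, 10 and 11 for WT LPS. WT PBS replicate 5 stood apart from the other 5 WT libraries, with 77.8% of its counts on protein-coding genes (84.3% to 86.5% in the other 5 WT libraries) and 16.6% on the non-coding gene *Gm26917* (6.02% to 7.12% in the others). The collagen genes of this library summed to 65370 CPM, against 20490 to 27240 CPM in the other 5, and mitochondrial genes held 0.306% of its counts (1.12% to 2.17% in the other 5). Replicate 6 of *Adm*+/- PBS leaned the same way, with 80.1% of counts on protein-coding genes, 13.3% on *Gm26917*, 0.622% on mitochondrial genes and 43300 CPM of collagens. Among genes that rose after LPS, WT LPS replicate 9 was the highest of its group for 71.1% of them, and among those that fell it was the lowest for 85.3%, while over all tested genes these shares were 35.4% and 36.2%. WT PBS replicate 5 was the highest control for 74.5% of the genes that fell, against 44.5% of all tested genes, and 794 genes were called lower without it. Defining markers of lung cells were present in all 6 libraries. *Sftpc* of type II pneumocytes lay at 8580.2, 9266 and 10417 CPM in WT PBS and 7628, 9917 and 8926 CPM in WT LPS, and *Cdh5* of endothelium at 715, 723 and 567 and 638, 605 and 558 CPM. The leukocyte gene *Ptprc* had 88.2, 88.8 and 49.2 CPM in WT PBS and 239, 161 and 216 CPM in WT LPS. *Adm* itself had 3.96, 7.09 and 4.57 CPM in WT PBS and 7.77, 8.15 and 4.46 CPM in WT LPS, with overlapping groups and a log2 change of 0.39 (SE 0.31, adjusted p = 0.388).

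A gene is called here when the Benjamini-Hochberg adjusted p of edgeR's quasi-likelihood test is below 0.05 and the log2 fold change is above 0.5 in size. Sizes of rises and falls are log2 changes of LPS over PBS throughout, with the standard error (SE) of the fit. By this rule 17.6% of the tested genes were called in WT mice, 10.5% higher and 7.09% lower after LPS. Without WT LPS replicate 9 these shares were 6.25% higher and 2.75% lower. With only the 6 WT libraries in the fit 1152 genes were called, 804 higher and 348 lower. Counts over the tested members of a list are descriptions, since a gene that passed the count filter only through the LPS libraries had to differ. Rises were larger than falls. Of the 1664 rises, 1090 were above 1 and 469 above 2 on the log2 scale, whereas 309 of the 1127 falls were below −1 and 22 below −2. The median of all tested genes was 0.01. Each library came from 1 lung sample of a group of 3 per genotype and treatment, and the p-values measure the spread between these samples. The LPS and PBS libraries did not overlap for 36.2% of tested genes, called or not.

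The promoters of genes that rose held certain short motifs at higher shares than those of other genes. For 12133 tested genes a promoter was found by symbol in RefSeq (build GRCm38.p6), running from 250 bases before the start to 50 bases after it. A match to the NF-kappa B motif GGNNTTTCC on either strand was in 9.15% of the 1246 promoters of risen genes, 4.01% of the 848 promoters of fallen genes and 6.02% of all. For the AP-1 motif TGANTCA the shares were 10.6%, 3.54% and 5.46%. The C/EBP motif TTGCNNAA was in 13% of promoters of risen genes, 7.43% of fallen genes and 8.74% of all, and the motif GAAANNGAA, a core of the interferon-stimulated response element, in 8.99%, 6.13% and 7.33%. A TATAAA box on the coding strand from 40 to 20 bases before the start was in 5.38% of risen, 1.42% of fallen and 1.6% of all promoters. A match is a run of letters, not a site shown to bind a factor, and these shares were not tested. NF-kappa B and interferon motifs can overlap in part.

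**Figure D1:**
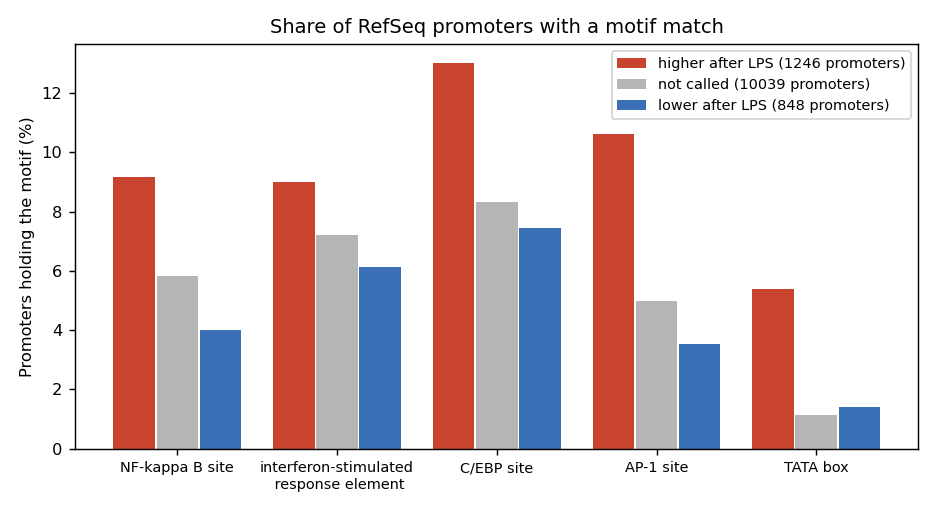
Share of RefSeq promoters, in percent on an axis from 0, that hold each of 5 motifs among genes called higher, not called and called lower after LPS in WT mice. For each motif the bar of risen genes is the tallest, with 9.15% for the NF-kappa B motif and 13% for the C/EBP motif.

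Promoters of 5 genes described in the next paragraphs are printed to show where these letters lie. Each runs 5′ to 3′ on the strand of the gene, ends before the most upstream annotated start, and has the motif letters in capitals. *Cxcl2* encodes a chemokine that draws neutrophils, and *Nfkbia* the inhibitor that holds NF-kappa B in the cytoplasm. *Acod1* encodes the enzyme that makes itaconate. *Ccl9* encodes a chemokine for myeloid cells, and *Ngp* a granule protein of neutrophils. The capitals mark NF-kappa B motifs that begin 96 and 77 bases before the RefSeq start of *Cxcl2*, 178 and 29 bases before that of *Nfkbia*, and 85 bases before that of *Acod1*. In *Ccl9* an AP-1 motif begins 53 bases and an NF-kappa B motif 35 bases before the start. The second run of capitals in *Nfkbia*, 53 bases before its start, is the interferon motif. The only run of capitals in *Ngp*, 138 bases before its start, is a C/EBP motif. A further C/EBP motif of *Ngp*, 11 bases before its start, and a TATAAA box of *Acod1*, 28 bases before its start, lie past the printed ends.
Cxcl2, chr5:90903699-90903870, plus strand: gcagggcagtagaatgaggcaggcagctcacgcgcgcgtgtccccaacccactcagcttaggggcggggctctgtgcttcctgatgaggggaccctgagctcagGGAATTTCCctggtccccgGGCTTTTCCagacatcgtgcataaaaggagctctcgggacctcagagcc
Nfkbia, chr12:55492648-55492847, minus strand: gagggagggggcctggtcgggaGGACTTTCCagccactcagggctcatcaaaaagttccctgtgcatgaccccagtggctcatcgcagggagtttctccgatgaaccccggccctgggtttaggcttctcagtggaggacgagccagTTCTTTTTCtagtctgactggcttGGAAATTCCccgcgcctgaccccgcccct
Acod1, chr14:103046812-103046976, plus strand: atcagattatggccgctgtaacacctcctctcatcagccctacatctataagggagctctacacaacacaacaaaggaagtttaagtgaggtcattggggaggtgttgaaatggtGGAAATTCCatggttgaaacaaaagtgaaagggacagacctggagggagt
Ccl9, chr11:83578637-83578836, minus strand: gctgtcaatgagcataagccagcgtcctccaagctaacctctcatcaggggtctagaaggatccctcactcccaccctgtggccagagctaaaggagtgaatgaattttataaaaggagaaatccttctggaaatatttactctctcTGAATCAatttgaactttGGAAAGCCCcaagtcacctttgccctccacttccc
Ngp, chr9:110419608-110419746, plus strand: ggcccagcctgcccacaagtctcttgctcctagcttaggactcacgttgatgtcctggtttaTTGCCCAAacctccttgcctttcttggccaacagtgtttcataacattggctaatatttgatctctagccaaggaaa

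The 12 rises with the smallest p held phagocyte genes beside genes of striated muscle. *Slc13a3* (ENSMUSG00000018459, chr2:165405028-165473230 in mm10), which encodes a sodium-coupled carrier of dicarboxylates, had the smallest p of all. It was at 0.971, 2.33 and 1.3 CPM in WT PBS and 57.9, 46.4 and 61.4 CPM in WT LPS, a rise of 5.18 (SE 0.30, adjusted p = 1.96e-05) and the groups were far apart. *Ncf1*, a subunit of the oxidase that makes superoxide in phagocytes, was at 17.9, 18.3 and 16.4 CPM in WT PBS and 109, 76.5 and 83.9 CPM in WT LPS and rose by 2.35 (SE 0.16, adjusted p = 2.43e-05). Next to these stood *Pglyrp1*, a peptidoglycan-binding protein of neutrophil granules, with a log2 change of 3.31 (adjusted p = 2.90e-05). *Aoah*, the enzyme that removes acyl chains from LPS and so inactivates it, rose from 2.6, 3.98 and 2.97 to 34, 20.2 and 22.7 CPM, by 3.01 (adjusted p = 4.48e-05). *Ggt1*, an enzyme of glutathione breakdown, rose by 4.38 (adjusted p = 4.48e-05). The other 7 of the 12 rises with the smallest p were *Neb*, *Mybpc1*, *Mylpf*, *Ryr1*, *Atp2a1*, *Atp1b4* and *Cacng1*, which are known from striated muscle and are described with the muscle genes. Some genes that were chosen by the naming rule and are given in the text share bases with another tested gene. On the opposite strand these are *Ncf1*, *Irak3*, *Myd88*, *Nfkb2*, *Il27*, *Stat3*, *Tgfb3*, *Bmp4*, *Ncald*, *Slc7a10*, *Efemp2*, *Tgm2*, *Timp3*, *Nr1d1*, *Dbp* and *Atp2a1*. *Ackr1* shares bases with *Cadm3* on the same strand. The counts of all these genes are less certain where reads could have been split.

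Some genes of LPS sensing rose, among them the co-receptor *Cd14*, the carrier *Lbp*, the adaptor *Myd88* and the inhibitor *Irak3*. Of 19 tested genes of the list of LPS sensing and adaptors, 8 were called higher (42.1%, against 10.5% of all tested genes) and 0 lower, with a median log2 change of 0.67. When WT LPS replicate 9 was left out, 5 were called higher. *Cd14*, which hands LPS to the receptor, was at 9.86, 15.8 and 13.1 CPM in WT PBS and 94.1, 82.3 and 36.8 CPM in WT LPS. Every LPS library of *Cd14* was above every PBS library, and the rise was 2.46 (SE 0.31, adjusted p = 0.000545). *Irak3*, an inactive kinase that damps Toll-like receptor signalling, was at 4.43, 10.7 and 4.57 CPM in WT PBS and 88.7, 56.3 and 34 CPM in WT LPS and had the smallest p of the list, with a rise of 3.18 (SE 0.39, adjusted p = 0.000442). *Tlr2*, the receptor of bacterial lipoproteins, rose by 1.87 (adjusted p = 0.00114). *Lbp*, the carrier of LPS in plasma, rose by 1.2 and *Myd88* by 0.91 (adjusted p = 0.00370 and 0.00793). The receptor *Tlr4*, named after its value was seen, had a log2 change of 0.67 (adjusted p = 0.058) and was not called, and neither were *Ticam1*, *Ticam2*, *Irak1*, *Irak2*, *Irak4* and *Traf6*. The kinase *Map3k7* and its partner *Tab2*, the most abundant members of the list, were not called, with log2 changes of 0.10 and 0.25.

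Several inhibitors of NF-kappa B rose, as did the subunit genes *Nfkb2* and *Relb*, the latter named after its value was seen (1.09). The list of NF-kappa B subunits and inhibitors had 8 of 19 members called higher and 0 lower (median 0.49). *Ikbke*, an inducible kinase of the pathway, was at 22.2, 31 and 24.3 CPM in WT PBS and 152, 104 and 77.1 CPM in WT LPS and rose by 2.1 (SE 0.22, adjusted p = 0.000169). *Tnfaip3*, the ubiquitin-editing enzyme A20 that ends the signal, was at 30.5, 44.5 and 26.1 CPM in WT PBS and 206, 121 and 46.1 CPM in WT LPS. Its replicate 11 was close to the highest PBS library, and the rise was 1.88 (SE 0.40, adjusted p = 0.00777). *Nfkbia*, whose promoter is printed with the NF-kappa B motifs, was at 57.2, 128 and 93.2 CPM in WT PBS and 334, 228 and 105 CPM in WT LPS. Here WT LPS replicate 11 lay below WT PBS replicate 4, so that the groups overlapped, and the rise of 1.26 (adjusted p = 0.0279) was not called without WT LPS replicate 9, at 0.84 (adjusted p = 0.146). The subunit gene *Nfkb2* rose by 1.06 (adjusted p = 0.0134), and *Tnip1*, a partner of A20, by 1.47 (adjusted p = 0.00776). *Nfkb1* was at 175, 196 and 225 CPM in WT PBS and 276, 259 and 199.6 CPM in WT LPS and was not called (log2 change 0.30, adjusted p = 0.123). Leaving out WT LPS replicate 9, the list had 3 members called higher and a median of 0.28, and without WT PBS replicate 5 it had 5 members called higher.

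Of 24 tested cytokine genes, 14 were called higher and 0 lower, with a median log2 change of 1.52. *Il1b*, the gene of interleukin 1 beta, was at 2.72, 10.4 and 3.27 CPM in WT PBS and 60.5, 38.3 and 21 CPM in WT LPS, a rise of 2.87 (SE 0.48, adjusted p = 0.00216). *Il1rn*, which encodes the antagonist of its receptor, was at 5.94, 6.6 and 2.35 CPM in WT PBS and 95, 66.4 and 29.4 CPM in WT LPS and rose by 3.66 (SE 0.45, adjusted p = 0.000480). In both genes replicate 9 was the highest LPS library, replicate 11 the lowest, and the groups were apart. *Tnf* was lower in level, at 1.55, 2.43 and 0.494 CPM in WT PBS and 18.1, 10.4 and 5.34 CPM in WT LPS, with a rise of 2.89 (adjusted p = 0.00414). The neutrophil-directed *Il1f9*, also known as interleukin 36 gamma, rose by 3.74 (adjusted p = 0.00313) and *Il27* by 2.18 (adjusted p = 0.00439). *Csf1*, the growth factor of macrophages, was at 34.8, 59.2 and 37.2 CPM in WT PBS and 185, 118 and 55.1 CPM in WT LPS. Its groups overlapped, and its rise of 1.45 (adjusted p = 0.0144) was not called without WT LPS replicate 9 (log2 change 0.98, adjusted p = 0.0720). *Tnfsf10*, the gene of the death ligand TRAIL, was not called (log2 change 0.61, adjusted p = 0.171). In all, 9 cytokine genes were called higher without WT LPS replicate 9.

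Chemokine genes that attract neutrophils, monocytes and eosinophils rose, and *Cxcl12* fell. In the list of CXC chemokines 8 of 15 tested genes were called higher and 1 lower (median 2.33), and in that of CC chemokines 9 of 14 were higher and 0 lower (median 2.72). The numbers called higher were 5 and 7 when WT LPS replicate 9 was left out, with medians of 1.44 and 2.45. *Cxcl2* (ENSMUSG00000058427, chr5:90903871-90905938) was at 0.194, 0.922 and 0.0618 CPM in WT PBS and 15.4, 6.32 and 2.19 CPM in WT LPS, a rise of 4.31 (SE 0.78, adjusted p = 0.00350). *Cxcl5*, another attractant of neutrophils, was at 0.155, 0.582 and 0.0618 CPM in WT PBS and 7.77, 5.61 and 0.956 CPM in WT LPS and rose by 4.12 (adjusted p = 0.00332). Both genes had few counts in WT PBS, and their LPS libraries differed from each other several-fold. *Ccl9* was at 4.54, 4.08 and 2.16 CPM in WT PBS and 64, 46 and 23.9 CPM in WT LPS and rose by 3.61 (SE 0.35, adjusted p = 0.000115). *Ccl3* and *Ccl4*, made by macrophages and neutrophils, rose by 3.73 and 4.31 (adjusted p = 0.00404 and 0.00225). *Ccl11*, the gene of the eosinophil attractant eotaxin, rose by 2.65 and the lymphocyte attractant *Ccl5* by 2.79 (adjusted p = 0.00283 and 0.00168). *Cxcl12* encodes a chemokine of mesenchyme and endothelium that retains and guides cells with the receptor *Cxcr4*. It was at 268, 263 and 245 CPM in WT PBS and 138, 142 and 205 CPM in WT LPS, a log2 change of −0.68 (SE 0.17, adjusted p = 0.0177), and it was not called without WT LPS replicate 9 (log2 change −0.58, adjusted p = 0.0818). *Cxcl15*, which lung epithelium makes, was at 545, 464 and 213 CPM in WT PBS and 665, 498 and 549 CPM in WT LPS and was not called.

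Receptors of cytokines rose in part. The list of JAK-STAT receptors and feedback had 12 of 24 genes called higher and 1 lower (median 0.58), and 3 higher and 0 lower without WT LPS replicate 9. The number higher was 6 without WT PBS replicate 5. The best separated was *Il6ra*, the receptor chain that binds interleukin 6, at 41, 41.4 and 42.4 CPM in WT PBS and 138, 90.8 and 112 CPM in WT LPS, a rise of 1.45 (SE 0.15, adjusted p = 0.000161). *Jak2*, a kinase of many cytokine receptors, rose by 0.68 (adjusted p = 0.00758) and *Il4ra* by 1.02 (adjusted p = 0.0172). *Socs1*, a feedback inhibitor of cytokine receptors, fell from 14.8, 13.3 and 19.8 to 6.01, 9.48 and 8.92 CPM, a log2 change of −0.97 (SE 0.23, adjusted p = 0.0125), with no overlap. Leaving out WT LPS replicate 9 gave −0.79 (adjusted p = 0.0551). Another feedback inhibitor of the list, *Socs3*, named after its value was seen, rose by 1.6 (adjusted p = 0.0305). *Stat3*, the transcription factor of interleukin 6 signalling, was at 140.1, 322 and 171 CPM in WT PBS and 449.97, 411 and 281 CPM in WT LPS, with overlapping groups and a rise of 0.85 (SE 0.26, adjusted p = 0.0392).

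Interferon-stimulated genes had mostly positive fold changes and few calls. Of 29 tested members, 28 had a positive log2 fold change (median 1.02), yet 2 were called higher and 0 lower, against 10.5% of all genes called higher. The called genes were *Ifitm3*, a membrane protein that blocks virus entry, and *Oasl1*. *Ifitm3* was at 54.5, 75.1 and 47.2 CPM in WT PBS and 165, 158 and 86.9 CPM in WT LPS and rose by 1.21 (SE 0.32, adjusted p = 0.0201), and *Oasl1* rose by 2.21 (adjusted p = 0.0406). *Parp14* had 54.2, 95.1 and 43.1 CPM in WT PBS and 183, 199 and 82.8 CPM in WT LPS, with WT PBS replicate 4 above WT LPS replicate 11, and was not called (adjusted p = 0.0846). The summed level of the list was 405, 789.5 and 421 CPM in WT PBS and 1145, 1368 and 593 CPM in WT LPS. WT PBS replicate 4 thus lay above WT LPS replicate 11. Neither gene was called without WT PBS replicate 5 or without WT LPS replicate 9, and in the latter case the median of the list was 1.05.

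Most genes of acute phase and metal-binding defence proteins rose. Of 30 tested members 24 were called higher (80%, against 10.5% of all tested genes) and 0 lower, the median log2 change was 3.15, and 19 were called without WT LPS replicate 9. Members *Ltf*, *Ngp*, *S100a8*, *S100a9* and *Camp* also stand in the neutrophil list, so that the 2 lists are not separate results. Of these, *S100a9*, *S100a8* and *Ltf* held means of 644.5, 552 and 414 CPM in WT LPS. *Lcn2* (ENSMUSG00000026822, chr2:32384633-32388252), a protein that withholds iron from bacteria, was at 38.4, 62.4 and 19.3 CPM in WT PBS and 958, 627 and 323 CPM in WT LPS, a rise of 3.99 (SE 0.45, adjusted p = 0.000266). *S100a8* and *S100a9* encode the zinc- and calcium-binding calprotectin of neutrophils. *S100a8* was at 9.36, 33 and 3.58 CPM in WT PBS and 793, 396 and 469 CPM in WT LPS and rose by 5.17 (SE 0.64, adjusted p = 0.000480), and *S100a9* rose by 4.71 (adjusted p = 0.000468). WT PBS replicate 4 was the highest control of all 3 genes. The iron-binding *Ltf* was at 12.6, 30.4 and 25.4 CPM in WT PBS and 603, 289 and 352 CPM in WT LPS, and the rise of 4.19 had the smallest p of the list (adjusted p = 8.98e-05). *Hp*, the gene of the haemoglobin scavenger haptoglobin, rose from 151, 223 and 233 to 1012, 865 and 428 CPM, by 1.92 (adjusted p = 0.00123), and the complement gene *C3* from 189, 339 and 296 to 812, 702 and 691 CPM, by 1.42 (adjusted p = 0.000560). The summed level of the list was 636, 1310 and 736 CPM in WT PBS and 8353, 5980 and 3906 CPM in WT LPS, lowest in replicate 11.

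Many genes of itaconate, arginine and nitric oxide metabolism rose, and in which lung cells they rose was not tested. In the list of itaconate, arginine and nitric oxide enzymes 10 of 15 genes were called higher and 0 lower (median 1.27), and 8 were called higher without WT LPS replicate 9. *Acod1* was at 0.117, 1.16 and 0 CPM in WT PBS and 115, 70.6 and 18.9 CPM in WT LPS, a rise of 7.29 (SE 0.92, adjusted p = 0.000529). WT LPS replicate 9 held about 6 times the level of replicate 11, and both were far above the highest control. The cystine carrier *Slc7a11* was at 2.17, 3.2 and 0.927 CPM in WT PBS and 50.3, 27.3 and 15.1 CPM in WT LPS and rose by 3.85 (SE 0.46, adjusted p = 0.000379). *Sod2*, the superoxide dismutase of mitochondria, rose by 1.97 and *Hmox1*, which breaks down haem, by 1.93 (adjusted p = 0.00151 and 0.000424). *Odc1*, the first enzyme of polyamine synthesis, was at 69.2, 77.7 and 89.1 CPM in WT PBS and 76.4, 97.3 and 57.5 CPM in WT LPS and was not called.

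**Figure D2:**
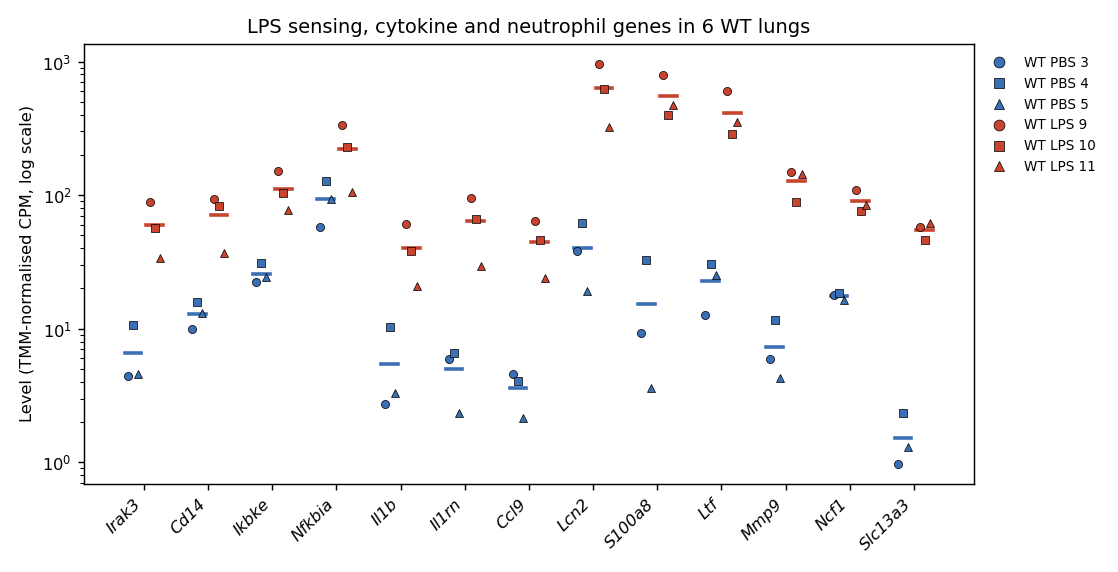
Levels of 13 genes that were called higher after LPS in the 6 WT libraries, as CPM on a log axis, with 1 point per mouse and a bar at the mean of each group. For *Nfkbia* the LPS and PBS libraries overlap (WT LPS replicate 11 at 105 CPM, WT PBS replicate 4 at 128 CPM), and for the other 12 genes they do not.

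Neutrophil genes made up the list with the highest share of calls among leukocytes. Of 27 tested members 25 were called higher (92.6%) and 0 lower, with a median log2 change of 3.52, and 24 were called without WT LPS replicate 9. *Csf3r*, the receptor of granulocyte colony-stimulating factor, was at 12.6, 13.6 and 8.71 CPM in WT PBS and 84.8, 52.6 and 83.7 CPM in WT LPS, a rise of 2.66 (SE 0.23, adjusted p = 7.55e-05). The gelatinase gene *Mmp9* was at 5.94, 11.7 and 4.26 CPM in WT PBS and 148, 88.2 and 143 CPM in WT LPS and rose by 4.11 (SE 0.39, adjusted p = 0.000112). *Padi4*, whose product citrullinates histones in neutrophils, rose by 2.96 (adjusted p = 4.68e-05). *Ngp* rose from 5.48, 20.5 and 5.19 to 399, 286 and 190.2 CPM, by 4.81 (adjusted p = 0.000252). The summed level of the neutrophil list was 129, 326 and 136 CPM in WT PBS and 3864, 2250 and 2489 CPM in WT LPS. In bulk RNA more cells of a type and more RNA per cell cannot be told apart, here and for each cell type list that follows.

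A part of the monocyte and macrophage genes rose as well. The monocyte list had 10 of 16 genes called higher and 0 lower (median 1.04), and 6 higher without WT LPS replicate 9. *Chil3*, a chitinase-like protein of myeloid cells, was at 14, 11.4 and 4.2 CPM in WT PBS and 143, 60.7 and 71 CPM in WT LPS, a rise of 3.2 (SE 0.41, adjusted p = 0.000560). *Fcgr4*, an Fc receptor of monocytes, rose by 2.87 and the classical monocyte gene *Ly6c2* by 1.57 (adjusted p = 0.000590 and 0.00312). *Ace* and *Fn1*, the most abundant members, which other lung cells also express, had log2 changes of 0.02 and −0.01 and were not called. The other members not called, named after their values were seen, were *Ccr2* (log2 change 0.004), *Vcan* (−0.34), *Ms4a4c* (0.67) and *Nr4a1* (0.57).

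In the list of interstitial macrophages and dendritic cells 11 of 20 genes were called higher and 1 lower (median 0.73). *Adgre1*, the macrophage antigen F4/80, was at 16.3, 16.9 and 15.1 CPM in WT PBS and 74.5, 35.8 and 97.1 CPM in WT LPS and rose by 2.1 (SE 0.32, adjusted p = 0.00136). *C1qb*, a complement subunit made by macrophages, rose by 1.83 and *Lyve1* by 1.22 (adjusted p = 0.00197 and 0.00174). The fall was that of *Mgl2*, a lectin of dendritic cells and some macrophages, which went from 2.29, 1.99 and 2.9 to 0.0616, 0.374 and 0.159 CPM, a log2 change of −3.63 (SE 0.57, adjusted p = 0.00161) and the largest fall by size among called genes whose groups were apart and whose level reached the minimum for naming. The dendritic cell genes *Flt3* (log2 change −0.65), *Zbtb46* (−0.15), *Clec9a* (0.15) and *Cd209a* (−1.86) of the same list, named after their values were seen, were not called. Of the alveolar macrophage list 5 of 15 genes were called higher and 0 lower (median 0.44). The scavenger receptor gene *Marco* was at 6.02, 8.64 and 7.54 CPM in WT PBS and 174, 65.7 and 71.2 CPM in WT LPS and rose by 3.81 (SE 0.42, adjusted p = 0.000236), and *Plet1* and *Fabp5* rose by 1.64 and 0.77 (adjusted p = 0.00415 and 0.000603). The 10 members not called are named after their values were seen. They were *Siglecf* (log2 change −0.13), *Krt79* (−0.32), *Cidec* (−0.53), *Car4* (0.12), *Ear1* (0.27), *Ear2* (0.44), *Pparg* (0.34), *Krt19* (0.42), *Fabp4* (0.63) and *Il18* (0.86).

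Molecules by which leukocytes leave the blood rose on both the leukocyte and the vessel side. Of 17 adhesion genes 11 were called higher and 0 lower (median 0.92), and 7 without WT LPS replicate 9. *Itgam*, the integrin chain of myeloid cells, was at 2.87, 3.93 and 1.85 CPM in WT PBS and 45.3, 19.6 and 31.7 CPM in WT LPS, a rise of 3.47 (SE 0.36, adjusted p = 0.000161). Its partner *Itgb2* rose by 1.58 and the selectin ligand *Selplg* by 1.4 (adjusted p = 0.000237 and 0.000334). On the vessel side *Selp*, the gene of P-selectin, was at 0.388, 1.31 and 0.309 CPM in WT PBS and 41.1, 20.4 and 3.15 CPM in WT LPS. The LPS libraries of *Selp* spanned more than 10-fold, all of them above the controls, and the rise was 5.0 (SE 0.83, adjusted p = 0.00218). *Ackr1*, a chemokine-binding protein of venules, rose by 3.85 (adjusted p = 0.00564). *Icam1* was at 173, 259.6 and 288 CPM in WT PBS and 637, 478 and 247 CPM in WT LPS, with WT LPS replicate 11 below 2 of the controls, and *Pecam1* was not called (log2 change 0.19, adjusted p = 0.262).

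Several genes of antigen presentation to T cells fell. In the list of MHC class II presentation 4 of 12 genes were called lower and 2 higher (median −0.62). *H2-Eb1*, a beta chain of these molecules, was at 35.3, 54.3 and 88.3 CPM in WT PBS and 21.7, 29.8 and 30.8 CPM in WT LPS, a log2 change of −1.11 (SE 0.29, adjusted p = 0.0204). *Cd74*, the invariant chain, was at 202, 240.3 and 322 CPM in WT PBS and 119, 172 and 162 CPM in WT LPS, a change of −0.75 (adjusted p = 0.0225), and *H2-DMb1*, which helps to load peptide, fell by 0.88 (adjusted p = 0.00444). The remaining fall, *H2-Ab1*, had a log2 change of −0.78. The called rises were the proteases *Ctss* and *Ctsh*, which act in lysosomes of many cells, with 1.02 (adjusted p = 0.00476) and 0.79 (adjusted p = 0.00219). Without WT LPS replicate 9 only *H2-DMb1* was called lower (log2 change −0.71, adjusted p = 0.0121). With WT PBS replicate 5 left out, which was the highest control of *H2-Eb1* and *Cd74*, the number called lower was 1.

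The T and B cell list had 1 of 22 genes called higher and 1 lower (median −0.13), which is 4.55% each way, against 10.5% and 7.09% of all tested genes. The genes were *Il7r*, with 1.36 (adjusted p = 0.0214), and *Cd6*, a T cell co-receptor, which fell from 1.71, 1.31 and 2.16 to 0.586, 0.582 and 0.597 CPM, by −1.54 (adjusted p = 0.00248). Without WT LPS replicate 9, *Il7r* was not called. In the NK cell list 4 of 15 genes were higher (26.7%, against 10.5% of all) and 0 lower (median 0.53), with 3 higher when WT LPS replicate 9 was left out, *Prf1* being lost. These were *Ccl5* and the cytotoxic granule genes *Gzmb*, *Gzma* and *Prf1*. *Gzma* was at 0.971, 1.55 and 1.42 CPM in WT PBS and 4.81, 4.03 and 2.63 CPM in WT LPS, a rise of 1.55 (SE 0.34, adjusted p = 0.00915), and *Prf1* rose by 1.17 (adjusted p = 0.0179), while the list summed to 9.86, 11.7 and 10.6 CPM in WT PBS and 25.2, 27.1 and 22.4 CPM in WT LPS. Of that sum *Ccl5*, which T cells and macrophages also make, held a mean of 0.874 CPM in WT PBS and 6.32 CPM in WT LPS. The NK receptors and regulators *Ncr1* (−0.23), *Klrb1c* (−0.01), *Klrd1* (−0.05) and *Eomes* (0.12) and the granule gene *Nkg7* (0.16), named after their log2 changes were seen, were not called. Of 11 mast cell and basophil genes edgeR called 0 (median 0.06), with 1 at an unadjusted p below 0.05 and 0 called by DESeq2 or limma-voom. In the thymocyte list *Arpp21* was called higher and *Cd1d1* lower of 8 tested (median −0.51), and in the erythroid list *Rhag* higher and *Car2* lower of 14 (median 0.47), where *Rhag* was not called without WT LPS replicate 9 or without WT PBS replicate 5. *Arpp21*, which muscle and brain also express in some of its forms, rose by 3.23, and *Car2*, a carbonic anhydrase, fell from 214, 199 and 152 to 88.6, 104 and 105 CPM, by −0.93 (adjusted p = 0.00116).

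**Figure D3:**
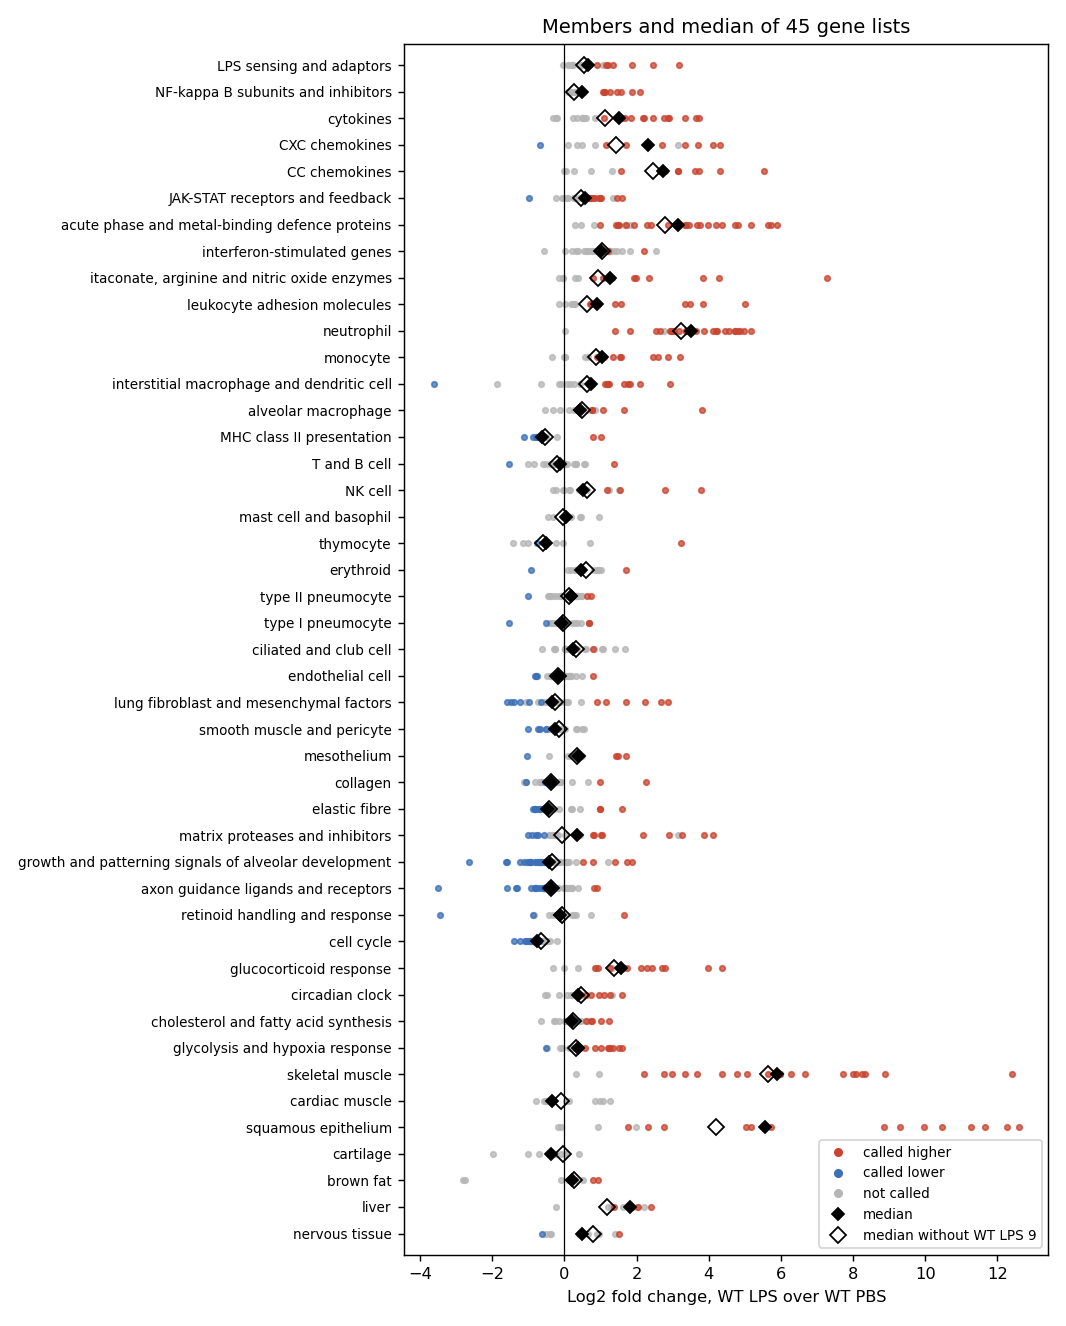
Log2 fold change of WT LPS over WT PBS for the tested members of 45 gene lists, 1 point per gene coloured by its call, with the median of each list (filled diamond) and the median without WT LPS replicate 9 (open diamond). Medians lie between −0.76 for the cell cycle and 5.89 for skeletal muscle, and the median of matrix proteases and inhibitors crosses 0 when replicate 9 is left out.

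The 12 falls with the smallest p included matrix, adhesion and signalling genes. The fall with the smallest p was *Cemip* (ENSMUSG00000052353, chr7:83932857-84086502), whose product breaks down hyaluronan, at 39.5, 29.4 and 39.1 CPM in WT PBS and 8.91, 8.9 and 7.25 CPM in WT LPS, a log2 change of −2.11 (SE 0.19, adjusted p = 8.61e-05). *Cttnbp2*, a cortactin-binding protein, was at 32.2, 30.2 and 29.4 CPM in WT PBS and 11.6, 10.8 and 11.9 CPM in WT LPS, with a spread within each group of less than 3 CPM, and fell by 1.42 (adjusted p = 0.000105). *Spon2*, a matrix protein, was at 119.8, 117 and 176 CPM in WT PBS and 22.7, 42.1 and 44 CPM in WT LPS and fell by 1.92 (adjusted p = 0.000447), and *Tnfrsf19*, a receptor of the tumour necrosis factor family in mesenchymal and epithelial progenitors, was at 156, 141 and 169 CPM in WT PBS and 38.3, 56.7 and 70.1 CPM in WT LPS and fell by 1.5 (adjusted p = 0.000467). *Frem1*, an extracellular matrix protein of basement membranes, fell by 0.65 (adjusted p = 0.000482), and *Ptpn5*, a tyrosine phosphatase, by −2.79 (adjusted p = 0.000339). The other genes among the 12 smallest p-values of falls, *Dpy19l3*, *Atp13a4*, *Ncald* and *Zmat4*, had log2 changes of −0.92, −1.78, −0.86 and −1.7, beside *Slit2* and *Cdh11*. None of the 12 genes overlapped between the groups, which the rule for naming them requires, and all 12 remained called without WT LPS replicate 9.

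Axon guidance genes, which steer growing axons and also vessels and lung mesenchyme, fell in larger numbers than they rose. Of 39 tested genes 14 were called lower (35.9%, against 7.09% of all) and 2 higher, with a median of −0.36, and without WT LPS replicate 9 these numbers were 8 and 2. *Slit2* (ENSMUSG00000031558, chr5:47983138-48307733), a secreted repellent, was at 770.1, 677 and 683 CPM in WT PBS and 239, 290.01 and 329.8 CPM in WT LPS, a log2 change of −1.31 (SE 0.12, adjusted p = 0.000115). *Robo2*, a receptor of Slit proteins, was at 221, 192 and 161 CPM in WT PBS and 105, 97.5 and 125 CPM in WT LPS and fell by 0.81 (adjusted p = 0.00175). *Unc5c*, a receptor of netrins, was at 208, 148 and 155 CPM in WT PBS and 40.4, 60.9 and 70.3 CPM in WT LPS and fell by 1.58 (adjusted p = 0.000856), and *Plxna4*, a receptor of semaphorins, fell by 0.92 (adjusted p = 0.000907). *Epha8*, an ephrin receptor, was low at 2.06, 1.02 and 4.88 CPM in WT PBS and 0.123, 0.166 and 0.398 CPM in WT LPS, a change of −3.51 (SE 0.59, adjusted p = 0.00218). The coreceptor *Nrp1*, the most abundant of the list beside *Slit2*, was not called (log2 change −0.19, adjusted p = 0.228). The called rises, named after their values were seen, were *Plxna2* with 0.83 and *Sema3d* with 0.90.

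Growth and patterning signals of alveolar development moved the same way. Of 50 tested members 19 were called lower (38%) and 5 higher (10%), with a median of −0.41, and 12 were lower and 4 higher without WT LPS replicate 9. The falls took in several families. *Tgfb2* was at 134, 112 and 106 CPM in WT PBS and 48.2, 64.6 and 65.9 CPM in WT LPS, a log2 change of −0.98 (SE 0.16, adjusted p = 0.00169), and *Tgfb3* fell by 1.13 (adjusted p = 0.000602). *Bmp4*, a signal of mesenchyme and endothelium, was at 73, 67.4 and 73.9 CPM in WT PBS and 39.4, 45.8 and 49.9 CPM in WT LPS and fell by 0.67 (adjusted p = 0.00194). *Wnt2*, which lung mesenchyme makes from early development, was at 53, 62.9 and 102 CPM in WT PBS and 18.7, 26.3 and 27.8 CPM in WT LPS and fell by 1.58 (adjusted p = 0.00159). *Vegfa*, the main growth factor of lung vessels, was at 613, 659.8 and 854 CPM in WT PBS and 437, 525 and 532 CPM in WT LPS and fell by 0.51 (adjusted p = 0.0203), a call that was not made without WT LPS replicate 9 (log2 change −0.43, adjusted p = 0.0931) or without WT PBS replicate 5 (log2 change −0.36, adjusted p = 0.0430). *Igf1r*, the abundant receptor of insulin-like growth factors, was not called (log2 change 0.04, adjusted p = 0.787). *Igf2* rose, from 120.1, 82.7 and 162 to 483, 389 and 339 CPM, by 1.73 (SE 0.21, adjusted p = 0.000424). Chosen after their values were seen, the other called rises were *Rspo3* (1.89), *Lgr5* (1.4), *Lgr4* (0.80) and *Wnt2b* (0.51), members of R-spondin and Wnt signalling, whereas the R-spondin gene *Rspo2* had −2.65, the largest fall of the list. In the list of retinoid handling and response, *Crabp1* and *Cyp26b1* were called lower and *Aldh1a3* higher of 18 tested (median −0.12), *Cyp26b1* not without WT LPS replicate 9, with *Crabp1*, a binding protein of retinoic acid, at 3.15, 3.45 and 2.16 CPM in WT PBS and 0.401, 0.374 and 0 CPM in WT LPS.

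**Figure D4:**
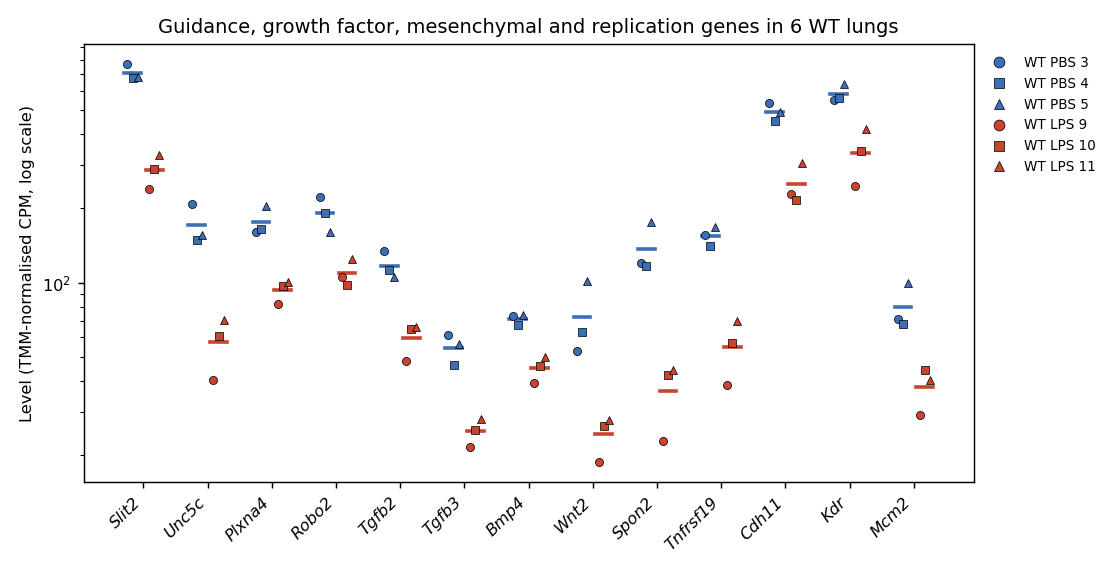
Levels of 13 genes called lower after LPS in the 6 WT libraries, as CPM on a log axis, with 1 point per mouse and a bar at the mean of each group. All 3 LPS libraries lie below all 3 PBS libraries for every gene drawn, with replicate 9 the lowest LPS library for 11 of the 13 genes.

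The mesenchymal list split. In lung fibroblast and mesenchymal factors 6 of 30 genes were called higher and 6 lower (median −0.33). *Cdh11*, a cadherin of mesenchyme, was at 537, 453 and 492 CPM in WT PBS and 229.7, 216 and 305 CPM in WT LPS and fell by 0.98 (adjusted p = 0.000538). The other falls were *Wnt2*, the amino acid carrier *Slc7a10* (log2 change −1.39, adjusted p = 0.00168) and, named after their values were seen, *Meox2* (−1.47), *Fgfr4* (−1.23) and *Fgf10* (−0.66). Higher were *Scara5*, a ferritin receptor of adventitial fibroblasts, at 4.27, 5.87 and 8.46 CPM in WT PBS and 70.2, 24.8 and 40.6 CPM in WT LPS, a rise of 2.88 (SE 0.48, adjusted p = 0.00225), and *Enpp2*, which makes lysophosphatidic acid (log2 change 0.91, adjusted p = 0.00436). The other 4 rises, also named after their values were seen, were *Inmt* (2.67), *Lum* (2.24), *Dcn* (1.71) and *Pi16* (1.16), of which *Lum* and *Dcn* encode small proteoglycans of the matrix. When WT LPS replicate 9 was left out, 3 were higher and 5 lower. Of the smooth muscle and pericyte list 4 of 20 genes were called lower and 0 higher (median −0.27, and −0.156 without WT LPS replicate 9). *Kcnk3*, a potassium channel of vascular smooth muscle, was at 95.8, 89.3 and 155 CPM in WT PBS and 48, 47.2 and 72.8 CPM in WT LPS, a log2 change of −1.02 (adjusted p = 0.0115), and *Notch3* fell by 0.72 (adjusted p = 0.0441), with WT PBS replicate 5 highest in both genes. Neither was called when WT LPS replicate 9 was left out, where 1 gene of the list was called lower, and 2 were called lower without WT PBS replicate 5. Mesothelium had 3 of 10 genes called higher and 1 lower (median 0.37), with *Nkain4* lower (log2 change −1.02, adjusted p = 0.00498) and *Muc16* higher (log2 change 1.69, adjusted p = 0.0177).

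Among genes of fibrillar matrix, WT PBS replicate 5 was far above the other controls for *Col1a1* and *Eln*. Of 24 collagen genes 2 were higher and 2 lower (8.33% each way, against 10.5% and 7.09% of all), with a median of −0.39 that was −0.04 without WT PBS replicate 5. *Col1a1* was at 5988, 5968 and 18449 CPM in WT PBS and 3601, 5672 and 4811 CPM in WT LPS and was not called (log2 change −1.11, adjusted p = 0.0834). *Col8a1*, a collagen of vessel walls, was at 2.76, 1.6 and 3.46 CPM in WT PBS and 17.3, 4.78 and 15.4 CPM in WT LPS and rose by 2.27 (SE 0.45, adjusted p = 0.00565), and *Col27a1* fell by 1.07 (adjusted p = 0.0171). Leaving out WT LPS replicate 9, 1 collagen gene was called higher and 0 lower, and *Col27a1* was not called (log2 change −0.93, adjusted p = 0.0824). Of 23 elastic fibre genes 7 were called lower (30.4%) and 3 higher (median −0.46), and 2 lower without WT LPS replicate 9. Among them *Mfap2*, a microfibril protein, was at 137, 146 and 143 CPM in WT PBS and 78.7, 107 and 105 CPM in WT LPS and fell by 0.55 (adjusted p = 0.00730), and *Efemp2*, which elastin assembly needs, fell by 0.72 (adjusted p = 0.00763). The cross-linking enzymes *Lox* and *Tgm2* rose, *Lox* from 169, 141 and 86.9 to 292, 219.9 and 267 CPM (log2 change 0.97, adjusted p = 0.00810) and *Tgm2* by 0.98 (adjusted p = 0.00189). *Eln* itself was at 4935, 5497 and 12551 CPM in WT PBS and 5849, 5031 and 5885 CPM in WT LPS and was not called. Of 27 matrix proteases and inhibitors 9 were higher and 5 lower (median 0.34, and −0.06 without WT LPS replicate 9). Without WT PBS replicate 5 the list had 7 higher and 3 lower, with a median of 0.014. The proteases *Mmp8*, *Mmp9* and *Mmp25* of neutrophils rose by 3.86, 4.11 and 2.91 (adjusted p = 0.00151, 0.000112 and 0.000316), and the inhibitor *Timp3* rose from 293, 345 and 209 to 628, 559.9 and 518 CPM (log2 change 1.01, adjusted p = 0.00186). *Adamts17* fell as well (adjusted p = 0.00223), and *Mmp2*, a gelatinase of fibroblasts, was at 363, 406 and 428 CPM in WT PBS and 269.5, 332 and 302 CPM in WT LPS, which was below the size threshold (log2 change −0.40, adjusted p = 0.0177).

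Cell cycle genes were all lower in fitted value, and a share of 50% of them were called. All 32 tested members had a negative log2 fold change (median −0.76), 16 were called lower and 0 higher, and 6 were called lower without WT LPS replicate 9. *Mcm2* and *Mcm5* belong to the helicase that opens DNA for replication. *Mcm2* was at 71.4, 68.2 and 100.1 CPM in WT PBS and 29, 44.2 and 40.2 CPM in WT LPS, a log2 change of −1.08 (SE 0.22, adjusted p = 0.00675), and *Mcm5* and *Mcm4* fell by 1.02 (adjusted p = 0.00748) and −0.69 (adjusted p = 0.00468). *Cdc6*, which loads this helicase, was at 15.6, 14 and 18.6 CPM in WT PBS and 5.76, 8.07 and 6.81 CPM in WT LPS and fell by 1.22 (adjusted p = 0.00338), and the spindle checkpoint gene *Bub1b* fell by 0.69 (adjusted p = 0.00747). The most abundant members did not pass. *Top2a* was at 286, 312 and 252 CPM in WT PBS and 139, 231 and 143 CPM in WT LPS (log2 change −0.73, adjusted p = 0.0540) and *Mki67* at 394, 430.1 and 332 CPM in WT PBS and 226, 330.1 and 217 CPM in WT LPS (log2 change −0.58, adjusted p = 0.0951), without overlap between the groups and with WT LPS replicate 10 close to the controls.

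In the type II pneumocyte list 2 of 25 genes were called higher and 1 lower (median 0.17), in the type I list 2 and 2 of 20 (median −0.06), and in the ciliated and club cell list 1 and 0 of 24 (median 0.23), against 10.5% and 7.09% of all tested genes. *Sftpd*, a collectin that binds LPS, was at 161, 180.01 and 251 CPM in WT PBS and 378, 306 and 310.4 CPM in WT LPS and rose by 0.75 (adjusted p = 0.0181), and *Lyz2*, the lysozyme of type II pneumocytes and of myeloid cells, rose by 0.63 (adjusted p = 0.0158). *Acoxl* fell by 1.0 (adjusted p = 0.00653). *Sftpc* had a log2 change of −0.09 (adjusted p = 0.656) and *Ager*, the type I marker, of −0.32 (adjusted p = 0.238). *Igfbp2*, a binding protein of growth factors in type I pneumocytes, was at 67.6, 83.3 and 194 CPM in WT PBS and 33, 47.4 and 39 CPM in WT LPS and fell by 1.53 (adjusted p = 0.0123), and *Pdpn* rose by 0.68 (adjusted p = 0.0460). The club cell enzyme *Cyp2f2* rose by 0.79 (adjusted p = 0.0319). Of these epithelial calls, those of *Sftpd*, *Lyz2*, *Igfbp2*, *Pdpn* and *Cyp2f2* were lost when WT LPS replicate 9 was left out, leaving 0 higher and 1 lower in the type II list and 0 and 0 in the type I list. The calls of *Pdpn* and *Cyp2f2* were also lost without WT PBS replicate 5. In the endothelial list 3 of 30 genes were lower and 1 higher (median −0.16). *Kdr*, the main receptor of *Vegfa*, was at 549, 558 and 636 CPM in WT PBS and 247, 342 and 418 CPM in WT LPS, a log2 change of −0.79 (SE 0.16, adjusted p = 0.00542). *Sox17*, a transcription factor of arteries, fell by 0.83 (adjusted p = 0.0129) and the receptor *Tie1* by −0.77 (adjusted p = 0.0126), while *S1pr1* rose by 0.80 (adjusted p = 0.0431). Of these 4, *Kdr* and *Sox17* were called without WT LPS replicate 9.

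Most listed genes that glucocorticoids induce rose. Of 18 tested members 13 were called higher (72.2%) and 0 lower (median 1.57), and 8 without WT LPS replicate 9. *Fkbp5*, a chaperone that binds the glucocorticoid receptor complex, was at 31.4, 68.5 and 53.4 CPM in WT PBS and 422, 380.1 and 251 CPM in WT LPS, a rise of 2.78 (SE 0.31, adjusted p = 0.000259). *Tsc22d3*, the mediator GILZ, was at 95.6, 194 and 82.2 CPM in WT PBS and 488, 452 and 298 CPM in WT LPS and rose by 1.74 (SE 0.28, adjusted p = 0.00189). In both genes WT PBS replicate 4 was the highest control. *Cdkn1a*, an inhibitor of cell division, rose by 1.64 and the metallothionein *Mt2* by 4.37 (adjusted p = 0.000641 and 0.000860). Among 18 clock genes 6 were higher and 0 lower (median 0.39), and 7 were higher and 2 lower when WT LPS replicate 9 was left out. *Nr1d2* and *Nr1d1*, repressors of the clock, rose by 1.09 and 1.59, *Dbp* by 1.27 and *Bhlhe40* by 0.97 (adjusted p = 0.000628, 0.00322, 0.00609 and 0.00323). *Per1* was at 50.8, 239.5 and 52.3 CPM in WT PBS and 329.9, 306 and 219 CPM in WT LPS and was not called, with WT PBS replicate 4 above WT LPS replicate 11. The part of the hour of sampling was not tested.

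Some genes of sugar use and of lipid synthesis rose. The glycolysis and hypoxia list had 9 of 24 genes called higher and 1 lower (median 0.39), with the glucose carrier *Slc2a1* at 14.4, 17.1 and 16.6 CPM in WT PBS and 47.3, 31.9 and 33.6 CPM in WT LPS, a rise of 1.23 (SE 0.15, adjusted p = 0.000500). *Hk2*, the first enzyme of glycolysis, rose by 1.59, the lactate carrier *Slc16a3* by 1.35 and *Ndrg1*, a gene of the hypoxia response, by 1.5 (adjusted p = 0.000860, 0.000316 and 0.000603). The single fall in that list was *Vegfa*. Of 25 genes of cholesterol and fatty acid synthesis 5 were higher and 0 lower (median 0.21), among them *Elovl6*, which elongates fatty acids (log2 change 1.23, adjusted p = 0.0130), and *Hmgcs1* (log2 change 0.73, adjusted p = 0.0336). *Fasn* was at 677, 902 and 987 CPM in WT PBS and 710.04, 1039.6 and 822 CPM in WT LPS and was not called. The shares called higher were 37.5% of the glycolysis and hypoxia list and 20% of the lipid list, against 10.5% of all tested genes. The numbers called higher were 8 and 1 when WT LPS replicate 9 was left out, where 6.25% of all tested genes were called higher. The share of the lipid list then lay below that of all genes.

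Genes of 2 tissues that are not part of the distal lung were high in WT LPS libraries. Of 23 tested skeletal muscle genes (25 were listed) 21 were called higher (91.3%) and 0 lower, with a median log2 change of 5.89, and 21 were called without WT LPS replicate 9. The median is the same with *Myh4* at its lower bound. Their summed level was 893, 455 and 766 CPM in WT PBS and 4788, 6227 and 2838 CPM in WT LPS, and 395 to 878 CPM over the 6 *Adm*+/- libraries. *Mylpf* (ENSMUSG00000030672, chr7:127208890-127214298), the light chain of fast muscle myosin, was at 1.51, 1.31 and 1.85 CPM in WT PBS and 145, 155 and 59.3 CPM in WT LPS, a rise of 6.27 (SE 0.43, adjusted p = 2.44e-05). *Ryr1*, the calcium release channel of skeletal muscle, was at 0.777, 0.534 and 1.85 CPM in WT PBS and 62.8, 86.7 and 42.4 CPM in WT LPS and rose by 5.98 (SE 0.42, adjusted p = 2.59e-05). *Neb*, a giant protein of the thin filament, rose by 4.36, the calcium pump gene *Atp2a1* by 5.64, and *Mybpc1*, *Atp1b4* and *Cacng1* by 8.88, 6.65 and 5.12 (adjusted p from 2.43e-05 to 4.27e-05). *Myh4* had 0 counts in all WT PBS libraries and 59.7, 18.2 and 4.54 CPM in WT LPS, a mean at least 148-fold higher than the level of 3 counts in the shallowest control library. Of 13 cardiac muscle genes edgeR called 0 (median −0.33), with 3 at an unadjusted p below 0.05, 1 called by DESeq2 and 0 by limma-voom. This median was 0.05 without WT PBS replicate 5 and 0.21 without WT LPS replicate 9 as well. *Myh6*, the myosin heavy chain of the atria, was at 317, 116 and 355 CPM in WT PBS and 131, 276 and 154 CPM in WT LPS, with overlapping groups.

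Squamous epithelium genes, which line oesophagus and skin, were high in 2 of the 3 WT LPS libraries. Of 36 listed genes 19 were tested, and the other 17 did not pass the count filter. Of those tested, 15 were called higher and 0 lower, with 12 higher without WT LPS replicate 9. Several were near 0 in WT PBS and did not pass the filter through those libraries, so that this count describes the libraries and supports nothing. The tested genes summed to 47.1, 37.7 and 57.6 CPM in WT PBS and 3854, 76.5 and 1954 CPM in WT LPS, with 37.1 to 96.9 CPM in *Adm*+/- libraries. *Krt13*, a keratin of such epithelium, was at 0.155, 0 and 0.0618 CPM in WT PBS and 1027, 9.52 and 542 CPM in WT LPS. Replicate 10 was above the controls and far below replicates 9 and 11 (adjusted p = 0.00234). *Krt4* and *Trp63* followed the same order, with 1382, 11 and 755 CPM and 28.8, 1.04 and 13.5 CPM in WT LPS. *Psca* and *Krt6a*, also among the largest fitted rises, were at 244, 5.66 and 114 and 153, 1.58 and 50.7 CPM in WT LPS with at most 1 count in any WT PBS library, and *Tmprss11b* and *Tmprss11g* had 0 counts there. For *Tmprss11g* the mean in WT LPS was at least 84.8-fold higher than the level of 3 counts in the shallowest control, and for *Tmprss11b* at least 135-fold higher, with no call without WT LPS replicate 9. Of 11 liver genes 4 were called higher and 0 lower (median 1.83), and 1 higher without WT LPS replicate 9 or without WT PBS replicate 5. *Apob* rose from 8.0, 3.25 and 3.03 to 21.7, 17 and 14.3 CPM, by 1.87 (SE 0.39, adjusted p = 0.00709), while *Alb*, at 13.6, 5.48 and 3.46 CPM in WT PBS and 55.1, 9.11 and 27.1 CPM in WT LPS, was not called. In the brown fat list 2 of 8 genes were higher and 0 lower (median 0.20, and 0.715 without WT PBS replicate 5), with 0 higher when WT LPS replicate 9 was left out. In nervous tissue *Sox10* was higher and *Stmn2* lower of 12 (median 0.48), and *Stmn2* was not called without WT LPS replicate 9 or without WT PBS replicate 5. Of 12 cartilage genes edgeR, DESeq2 and limma-voom called 0 (median −0.37), and 0 were at an unadjusted p below 0.05. Their median was 0.14 without WT PBS replicate 5, in which they summed to 245 CPM against 86.9 and 52.0 CPM in the other WT PBS libraries. The part of dissection or of other tissue in the lung samples in these levels was not tested, and nor was their part in the levels of the other lists. Apart from *Des*, which also stands in the smooth muscle list, no member of the muscle and squamous lists is in another list.

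**Figure D5:**
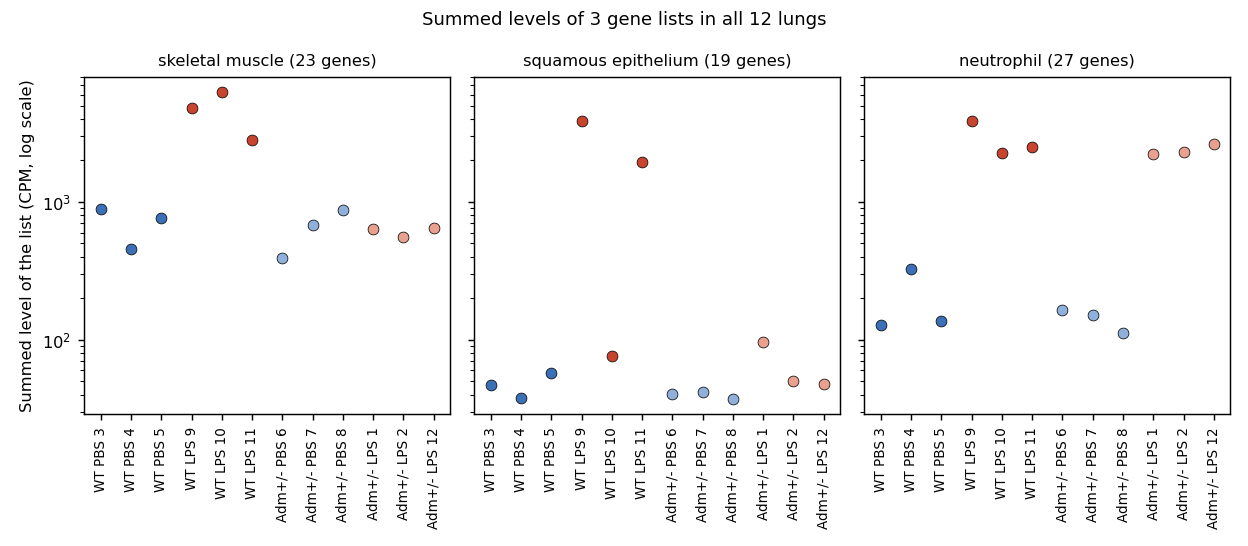
Summed CPM, on a log axis, of the tested members of 3 gene lists in each of the 12 libraries, 1 point per mouse coloured by group. Skeletal muscle is high in the 3 WT LPS libraries (2838 to 6227 CPM), squamous epithelium in 2 of them (1954 and 3854 CPM), and neutrophil genes in all 6 LPS libraries of both genotypes (2226 to 3864 CPM, against 112 to 326 CPM in the 6 PBS libraries).

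The difference in the LPS response between WT and *Adm*+/- mice was tested in the same fit. It was called for 23 genes (0.145% of those tested, and 1247 at an unadjusted p below 0.05). The number was 168 by DESeq2 and 1 by limma-voom, 6 without WT PBS replicate 4, 9 without WT PBS replicate 3, 11 without WT LPS replicate 9 and 65 without WT LPS replicate 10. Of the muscle list 9 genes were among the 23. The 5 with the smallest p, *Atp2a1*, *Neb*, *Myom3*, *Mylpf* and *Ryr1*, are all muscle genes. *Atp2a1* was at 2.89, 2.37 and 2.54 CPM in *Adm*+/- PBS and 3.89, 2.22 and 2.78 CPM in *Adm*+/- LPS, and the WT response exceeded that of *Adm*+/- mice by 5.44 log2 units (SE 0.53, adjusted p = 0.00320). No member of the inflammatory, leukocyte or development lists was called for a difference. Their fitted responses in *Adm*+/- mice, given side by side, had medians of 1.15 for NF-kappa B genes (WT 0.49), 2.19 for cytokines (WT 1.52), 4.19 for acute phase proteins (WT 3.15), 4.35 for neutrophil genes (WT 3.52), −0.67 for growth and patterning signals (WT −0.41) and −0.69 for the cell cycle (WT −0.76). The medians were 0.64 for LPS sensing (WT 0.67), 0.91 for monocyte genes (WT 1.04), 0.31 for alveolar macrophage genes (WT 0.44) and −0.25 for axon guidance (WT −0.36). Among all genes, 2077 were called in the same direction in both genotypes, 74.4% of the calls in WT mice and 52.3% of the 3968 calls in *Adm*+/- mice, where 25.0% of tested genes were called.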

How the data were processed

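RNA sequencing was analysed from 12 lungs, 3 per genotype and treatment. Ribosomal RNA was removed and the library kit kept the strand. The submitters' processing notes name Trim Galore. According to the study's methods the authors mapped reads to mm10 (HISAT2) and summed them per Gencode gene (featureCounts). The deposited table held these raw counts per gene, with 1 column per library. The Gencode release and the strand option are not given in the sources used here, and reads shared by overlapping genes may be misassigned.

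Protein-coding genes that passed filterByExpr (15885) entered the quasi-likelihood test of edgeR (edgeR 4.0.16, R 4.3.3) after TMM normalisation, in 1 fit of the 12 libraries with a coefficient per group and no covariate. P-values were adjusted by Benjamini-Hochberg over all tested genes, and a gene was called at an adjusted p below 0.05 and a log2 fold change above 0.5 in size. CPM values follow from the effective library sizes. A count floor of 3 per library stands in for groups at 0. Alternatives were RLE size factors, DESeq2 1.42.0, limma-voom (limma 3.58.1), glmTreat against 0.5, other filters, all annotated genes, the 6 WT libraries alone, and the omission of libraries.

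The comparison, the gene lists and the alternatives were chosen with earlier results of these data known. Genes named in the text were *Adm*, the 12 called rises and 12 called falls with the smallest p, the 6 largest of each, up to 5 called members per list by p with its 2 most abundant members, and the 5 genes with the smallest p for the genotype difference. The rises and falls taken by p or by size needed separate WT LPS and WT PBS libraries and a mean level of 1 CPM or more. Markers of lung cells and genes said to be named after their values were seen are outside this rule.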

Additional observations from a re-analysis of the deposited data

Results flagged for a closer look

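The LPS response differed between WT and *Adm*+/- mice for 6 of the named genes by the test of the difference itself (edgeR's quasi-likelihood test, Benjamini-Hochberg adjusted over 15885 genes). Written as the log2 change in WT mice minus that in *Adm*+/- mice, the difference was 5.44 for *Atp2a1* (adjusted p = 0.00320), 3.68 for *Neb* (adjusted p = 0.00320), 4.09 for *Myom3* (adjusted p = 0.00489), 5.53 for *Mylpf* (adjusted p = 0.00521), 5.27 for *Ryr1* (adjusted p = 0.00521) and 6.62 for *Myh8* (adjusted p = 0.00952). By limma-voom the difference was called for 1 gene in all, and without WT PBS replicate 4 edgeR called it for 6. All 6 named genes belong to the skeletal muscle list, whose summed level was 4788, 6227 and 2838 CPM in WT LPS and 552 to 647 CPM in *Adm*+/- LPS. The part of other tissue in the lung samples was not tested.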

How the results depend on the processing

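Replicate numbers differ in every library. No paired analysis was possible because the groups compared share 0 replicate numbers. With RLE size factors, DESeq2, limma-voom, no filter, a filter of 1 CPM in 3 libraries or all annotated genes, the numbers of genes called in WT mice in all, higher and lower stayed within 1.5 times the values reported. By glmTreat against 0.5, 1001 genes were called (806 higher and 195 lower), in the 6 WT libraries alone 1152 (804 and 348), and without WT PBS replicate 5 and WT LPS replicate 9 together 1412 (1003 and 409). With 1 library left out at a time the numbers ran from 1443 to 3074, with 1002 to 1629 higher and 441 to 1448 lower, the lowest each time without WT LPS replicate 9, where 1417 of the 1443 genes were also called in the same direction with it. The genotype difference was called for 168 genes by DESeq2, 1 by limma-voom and 13 by glmTreat, and for 6 to 65 with 1 library left out. Of 207 named genes called in WT mice, 0 changed direction under any alternative. These genes had been chosen by their calls, and those taken by p or size also for separate groups. A change of direction was thus unlikely in advance. The call was lost for 71 of the 207 by glmTreat, 61 in the 6 WT libraries alone (of 206 tested there), 58 with both libraries left out, 48 without WT LPS replicate 9, 26 without WT PBS replicate 5, 17 by limma-voom and 1 by DESeq2. The median of matrix proteases and inhibitors changed sign, from 0.34 to −0.013 with both libraries left out, and ranged from −0.062 to 0.322 with 1 left out. Medians of lists with few or 0 calls also changed sign: without WT PBS replicate 5 to 0.14 for cartilage, 0.051 for cardiac muscle and 0.052 for the retinoid list, without WT LPS replicate 9 to −0.029 for mast cells, and without both libraries to 0.014 for collagens. Those of cardiac muscle and of T and B cells changed sign without WT PBS replicate 3, and that of brown fat without WT PBS replicate 4. Of 675 list medians recomputed, 644 moved by no more than the spread between replicates. That spread was the larger standard deviation of a list's median level within a WT group, and it included the libraries later left out. Fold changes under glmTreat are those of the main fit. Small moves were thus likely in advance, and the count is no measure of stability. glmTreat sets a stricter threshold by construction and the fits with libraries left out hold fewer samples. The cause of the remaining changes was not tested.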
